A study of Urocitellus parryii with 44 samples.

Results

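Pre-mRNA splicing in brown adipose tissue was examined through the core components of the spliceosome. The members were all probes on 4 mouse cDNA membranes whose only gene symbol begins with Snrp, Sf3, Prpf, U2af or Lsm, or is Sf1. This gave 98 probes for 43 genes, out of 38400 probes and 11786 single symbols. The compared groups were 5 arctic ground squirrels in winter torpor and 3 summer active arctic ground squirrels, which the labels place in August. Tissue in both was brown adipose, and the labels used here give no genotype, age or sex and name no treatment. Season and torpor change together in this design, so they cannot be told apart. The total RNA was labelled with 33P, and each membrane (MA07, MA08, MA10 and MA11) carried 9600 mouse probes, so a symbol names the mouse gene that a squirrel RNA was bound to. The RNAs of torpid animal 5 and of summer animals 1 and 2 were split and measured in duplicate, giving 24 columns for torpid and 20 for summer animals over the 4 membranes.

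The spliceosome removes introns from pre-mRNA. It assembles stepwise from small nuclear ribonucleoprotein particles (snRNPs), each a small nuclear RNA bound by proteins. U1 recognises the 5' splice site, and U2 binds the branch point with help from SF1, U2AF and the SF3A and SF3B complexes. The U4/U6.U5 tri-snRNP, which holds several of the PRPF proteins, then joins. Sm proteins form a ring on most spliceosomal RNAs, and the related LSm proteins form one on U6 RNA. In brown fat, as in other tissues, these are housekeeping proteins whose mRNAs are made in most cells.

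No core spliceosome probe passed the test of torpid against summer animals across all probes. Of the 97 member probes that could be tested, 0 reached an adjusted p under 0.05 (limma on log2 values, Benjamini-Hochberg adjustment over 37848 tested probes), against 0.309% of all probes, which is 117 probes. At an unadjusted p under 0.05, 17 members were found, 8 with a higher value in torpor (8.25% of members, against 6.39% of all tested probes) and 9 with a lower one (9.28%, against 5.18%). Together they made 17.5% of members, against 11.6% of all probes. The untested member was 1 of 2 Lsm10 probes (MA10 probe 7624), which had a value in torpid animal 5 only. Its log2 value was -3.27 there, against -3.63, -4.59 and -2.35 in the summer animals.

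The differences were centred near 0. Throughout, a level is the log2 of an intensity that was divided by its column's median, so a level of 0 is the column median, and a difference is torpor minus summer on that scale. The median difference of the members was -0.029 (interquartile range -0.29 to 0.29), with 45 probes above 0 and 52 below, and the median over all tested probes was 6.5e-05. The largest differences were -1.34 and 1.17, and 3 members (3.09%, against 4.71% of all probes) lay beyond a 2-fold change. By membrane, the median of the members was 0.018 for MA07, -0.11 for MA08, -0.16 for MA10 and 0.12 for MA11. Over all tested probes these medians were -0.021, 0.0083, -0.0071 and 0.022. Differences on MA10 were the least precise. Its median standard error (SE) over all tested probes was 0.43, against 0.23 on MA07, 0.25 on MA08 and 0.28 on MA11. The groups did not overlap at 10 members (10.3%, against 8.5% of all probes), with the torpid animals above at 6 (6.19%, against 4.37%) and below at 4 (4.12%, against 4.13%). A missing call does not show equal levels: the 95% interval lay within a 2-fold change either way for 46 of 97 members (47.4%, against 54.3% of all probes), so for the others a change of 2-fold could not be bounded at these 8 animals.

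**Figure D1:**
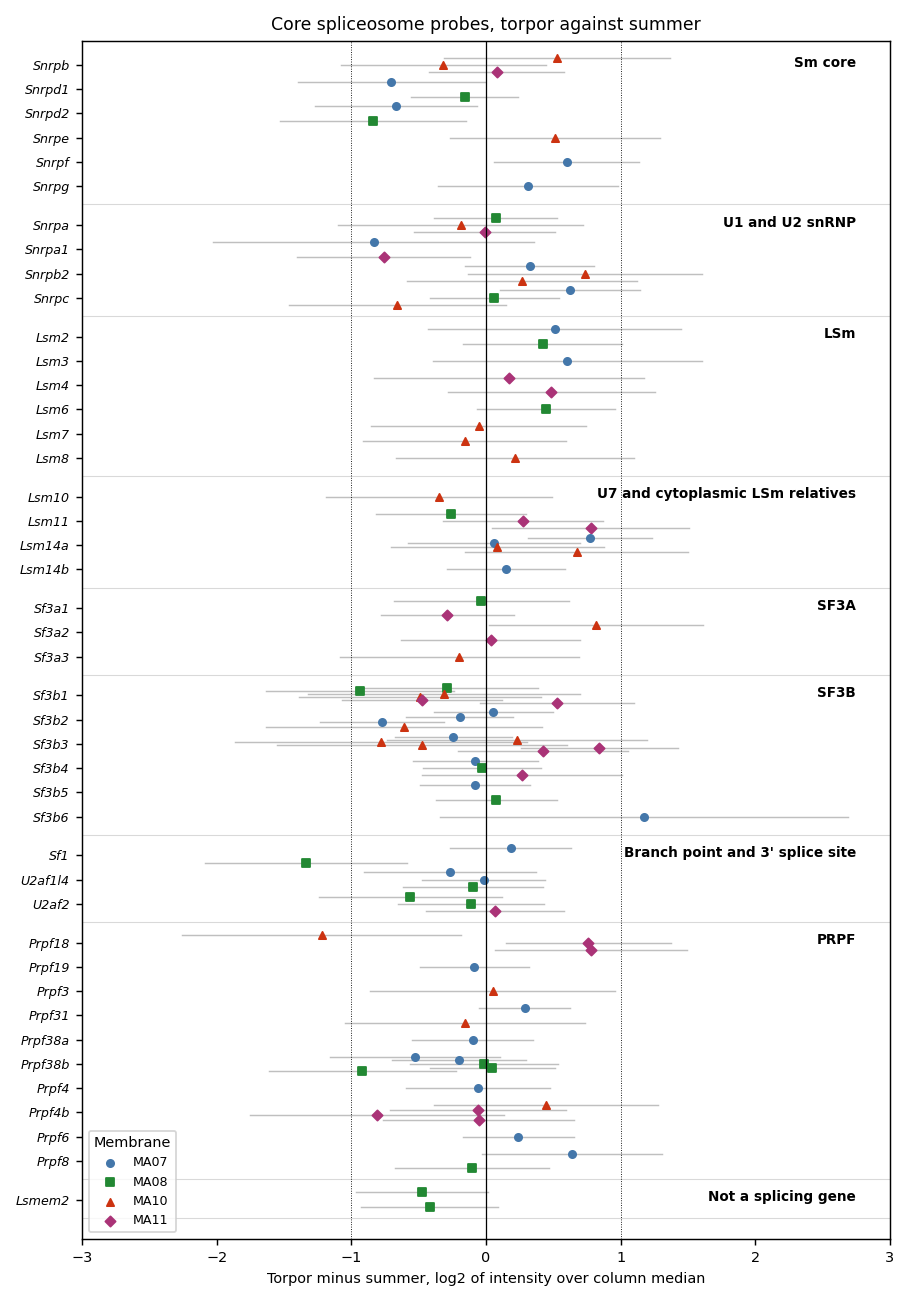
Torpor minus summer log2 difference (x axis) of every tested member probe, grouped by role and gene (y axis), with the 95% interval as a grey line, the membrane as the marker shape and dotted lines at a 2-fold change. The points spread on both sides of 0 in most roles, from -1.34 to 1.17.

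The RNA came from bulk tissue, in which fewer cells of a type and less RNA per cell cannot be told apart. For each marker list, the intensities of its probes were summed in each animal before log2 was taken. Bright spots therefore weigh most in a sum. These sums did not overlap between the groups for 4 lists of fat and other cell types. The log2 sum of the white fat list (7 of its 9 genes on the membranes) ranged from 6.12 to 6.62 in torpor, against 7.06 to 7.34 in summer. That of the muscle list (9 of 15 genes) ranged from 6.52 to 6.74 in torpor, against 7.16 to 7.46 in summer. The adipocyte list (6 of 12) ranged from 5.19 to 5.63 in torpor, against 3.81 to 4.88 in summer, and the endothelium list (7 of 10) from 3.53 to 4.09 in torpor, against 3.46 to 3.48 in summer. The adipocyte sum leaned on 1 bright Dgat2 probe, with mean levels of 4.80 in torpor and 2.93 in summer. It was the only 1 of the list's 8 probes with an unadjusted limma p under 0.05. The Lpl probes differed by 0.77 and 0.37 and the Pparg probe by -0.20. At an unadjusted limma p under 0.05, the white fat list had 0 of 16 tested probes higher in torpor and 3 lower. The muscle list had 1 higher and 1 lower of 12, and the endothelium list 1 higher and 1 lower of 13. Over all tested probes 6.39% were higher and 5.18% lower. How often the sums of other lists separate was not tested. The brown fat list (8 of 12; 3.80 to 4.09 in torpor, 3.99 to 4.57 in summer), erythroid list (3 of 6; 1.69 to 3.37 in torpor, 2.45 to 3.40 in summer), immune list (11 of 14; 5.64 to 5.94 in torpor, 5.31 to 5.99 in summer) and nerve list (9 of 11; 6.89 to 7.15 in torpor, 6.06 to 7.60 in summer) overlapped. No tested probe of these lists reached an adjusted p under 0.05, no probe with a single symbol for Ucp1, Adipoq or Fabp4 was used, and the part of these cells in the results was not tested. As a check of the labelled tissue, the 14 probes of the brown fat list lay between percentiles 0.511 and 86.0 of their membranes' signal, with a median of 47.9, and both Dio2 probes were in the lowest 10%. These percentiles place each spot on its membrane and do not measure how strongly a gene is expressed.

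Sm proteins, which ring the spliceosomal RNAs, had a median difference of -0.039 over 10 probes, with 5 above 0 and 5 below. At an unadjusted p under 0.05, 3 were lower in torpor (30%, against 5.18% of all tested probes) and 1 was higher (10%, against 6.39%). The lower ones were both probes of Snrpd2, which encodes SmD2, and 1 probe of Snrpd1, and the higher one was Snrpf. On MA08 (probe 1837) the Snrpd2 level was 1.26, 1.67, 1.32, 1.25 and 1.39 in torpid animals 1 to 5, against 1.71, 1.78 and 3.17 in summer animals 1 to 3. All torpid animals lay below all summer animals, and summer animal 3 lay far above the other two. The difference was -0.84 ± 0.32 (SE; adjusted p = 0.33), and -0.36 without summer animal 3. On MA07 (probe 6512) the levels were 0.89, 1.23, 0.96, 0.87 and 1.13 in torpor, against 1.24, 1.36 and 2.45 in summer, again separate, with a difference of -0.67 ± 0.27 (adjusted p = 0.38) and of -0.29 without summer animal 3. Of the 2 probes of Snrpd1, which encodes SmD1, the MA07 probe (8210) gave -0.70 ± 0.31 (adjusted p = 0.43), while the MA08 probe gave -0.16. Snrpf, which encodes SmF, was read at a dim spot (MA07 probe 9021), with values in 2 torpid animals, -3.04 and -3.05, against -3.80, -3.54 and -3.60 in summer. Its difference was 0.60 ± 0.23 (adjusted p = 0.38). It was -0.017 when empty cells and values under the column's 10th percentile were set to that percentile. The spot lay at percentile 0.93 of its membrane, so that floor replaced its dim readings too and cannot show a direction. Snrpe, Snrpg and Snrpb, for SmE, SmG and SmB, had differences of 0.51 for Snrpe, 0.31 for Snrpg, and 0.53, -0.32 and 0.08 for the 3 probes of Snrpb. Probes that name Snrpn beside Snurf were not members, and they differed by 0.11, 0.36 and 0.78. The last of them (MA11 probe 2832) had a limma p of 0.012 (adjusted p = 0.28).

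Proteins of the U1 and U2 particles whose symbols the rule takes were measured by 11 probes. Their median difference was 0.062, with 6 above 0 and 5 below. Snrnp70 of U1, outside the rule, differed by -0.09. Snrpc, the C protein of U1, which contacts the 5' splice site with U1, had levels of 1.14, 1.26, 1.14, 1.10 and 1.60 in torpor at its MA07 probe (8851), against 0.13, 0.64 and 1.10 in summer. All torpid animals lay above all summer animals, but torpid animal 4 at 1.101 and summer animal 3 at 1.098 were nearly equal. The difference of the group means was 0.62 ± 0.23 (adjusted p = 0.34), or 0.38 without summer animal 1. Its other 2 probes had differences of 0.06 and -0.66. Snrpa1, the A' protein of U2, which binds U2 RNA, had levels of 5.81, 6.11, 6.29, 6.63 and 6.28 in torpor at MA11 probe 1201, against 6.66, 7.69 and 6.61 in summer, a difference of -0.76 ± 0.30 (adjusted p = 0.35). The groups overlapped through torpid animal 4, and the value was -0.41 without summer animal 2, -0.38 after cyclic loess and -0.20 after quantile normalization. Its MA07 probe (6611) differed by -0.84 ± 0.53 (limma p = 0.15). That spot was dim, at percentile 2.65 of its membrane, with values in 4 torpid animals. Snrpa, the A protein of U1, had differences of 0.07, -0.19 and -0.01, and Snrpb2, the B'' protein of U2, had 0.32, 0.74 and 0.26.

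LSm proteins of the U6 ring and its cytoplasmic counterpart were measured by 9 probes, with a median difference of 0.42, 7 above 0 and 2 below; none reached an unadjusted p under 0.05. Lsm3, singled out after its values were seen, had the highest difference among them, 0.60, with levels of 3.15, 2.80, 2.95, 2.62 and 3.60 in torpor, against 1.55, 3.79 and 1.92 in summer. These groups overlapped, because summer animal 2 was above every torpid animal. Lsm2 differed by 0.51 and 0.42, Lsm4 by 0.17 and 0.48, Lsm6 by 0.45, Lsm8 by 0.21, and Lsm7 by -0.06 and -0.16. A further 9 probes belong to the U7 snRNP, which processes histone mRNA, and to LSm relatives in the cytoplasm, and had a median of 0.15 with 7 above 0 and 2 below. Of these, Lsm14a, which acts in cytoplasmic mRNA granules, had levels of 1.44, 1.42, 1.09, 1.06 and 1.25 in torpor at MA07 probe 6599, against 0.85, 0.10 and 0.48 in summer, with torpid animals above all summer animals. The difference was 0.77 ± 0.21 (adjusted p = 0.19), or 0.47 with the a columns and 1.08 with the b columns of the split RNAs. Its other 3 probes had differences of 0.06, 0.08 and 0.67. Lsm11, a U7 protein, differed by 0.78 ± 0.34 at MA11 probe 8242 (adjusted p = 0.40), with levels of 4.57, 3.98, 3.90, 4.01 and 4.68 in torpor, against 3.45, 4.22 and 2.69 in summer. Those groups overlapped, and the difference was 0.40 without summer animal 3 and 1.16 without summer animal 2. Its other 2 probes had differences of -0.26 and 0.27, Lsm10 had -0.35 and Lsm14b 0.15.

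SF3A and SF3B proteins, which hold U2 at the branch point, had medians of -0.034 over 5 probes and -0.14 over 22 probes. These counts cover the symbols that the rule takes. In SF3B 14 probes were below 0 and 8 above, with 1 higher (4.55%, against 6.39% of all tested probes) and 2 lower (9.09%, against 5.18%) at an unadjusted p under 0.05. Sf3b2 on MA07 (probe 8572) had levels of 0.17, 0.15, -0.33, -0.15 and 0.25 in torpor, against 0.47, 1.06 and 0.84 in summer, all torpid animals lying below all summer animals. The difference was -0.77 ± 0.21 (adjusted p = 0.20), and the other 3 Sf3b2 probes gave 0.05, -0.20 and -0.61. Sf3b1, the largest SF3B subunit, had levels of -2.11, -1.68, -1.77, -1.22 and -0.76 in torpor on MA08 (probe 7557), against -0.80, -0.04 and -0.87 in summer. Torpid animal 5 lay above 2 of the summer animals, and the difference was -0.93 ± 0.32 (adjusted p = 0.29). The spot was dim, at percentile 10.2 of its membrane, and with values floored at the 10th percentile the difference was -0.55. Its other 5 probes gave -0.29, -0.31, -0.49, -0.48 and 0.53, so 1 of 6 had the opposite sign; that probe, MA11 6092, had all torpid above all summer animals (unadjusted p = 0.067).

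Sf3b3 on MA11 (probe 1050) had levels of 3.01, 3.10, 3.23, 3.35 and 3.80 in torpor, against 2.35, 2.92 and 2.10 in summer. All torpid animals lay above all summer animals, torpid animal 1 only just above summer animal 2. The difference of the group means was 0.84 ± 0.27 (adjusted p = 0.25). That value was 0.35 after cyclic loess and 0.47 after quantile normalization, and the other 5 probes ranged from -0.78 to 0.42. Sf3b6 had the highest value of all members, 1.17 ± 0.66 (unadjusted p = 0.11), at a spot with values in 3 torpid animals that was among the dimmest of its membrane. Sf3b4 had differences of -0.08, -0.03 and 0.27, and Sf3b5 had -0.08 and 0.08. Of the SF3A proteins, Sf3a2 had levels of 3.73, 4.01, 3.14, 3.47 and 3.53 in torpor on MA10 (probe 6131), against 2.37, 3.21 and 2.71 in summer. Those groups overlapped by torpid animal 3 alone and differed by 0.81 ± 0.38 (adjusted p = 0.42), with 0.04 at its other probe. Sf3a1 had differences of -0.03 and -0.29, and Sf3a3 had -0.20.

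Branch point and 3' splice site proteins were covered by 8 probes, with a median of -0.11, 6 below 0 and 2 above. Sf1, which binds the branch point before U2 arrives, held the smallest p of all members. Its MA08 probe (8983) had levels of 0.43, 0.71, 0.35, 1.12 and 0.58 in torpor, against 1.26, 1.73 and 2.93 in summer. All torpid animals lay below all summer animals, and the difference was -1.34 ± 0.34, 2.53-fold lower (95% interval -2.09 to -0.59, p = 0.0023, adjusted p = 0.16). Leaving out summer animal 3 gave -0.86, and leaving out summer animal 1 gave -1.69 with an adjusted p of 0.049, the only adjusted p under 0.05 of any member in any alternative, where adjusted p of this probe ranged from 0.049 to 0.53. The a and b columns of summer animal 2's RNA read 3.32 and 0.14 at this spot. The other Sf1 probe, on MA07, differed by 0.18. The U2AF large subunit gene U2af2 had -0.56, -0.11 and 0.07, of which -0.11 and 0.07 are 1 clone on different membranes, and U2af1l4, a relative of the small subunit, had -0.27, -0.02 and -0.10.

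**Figure D2:**
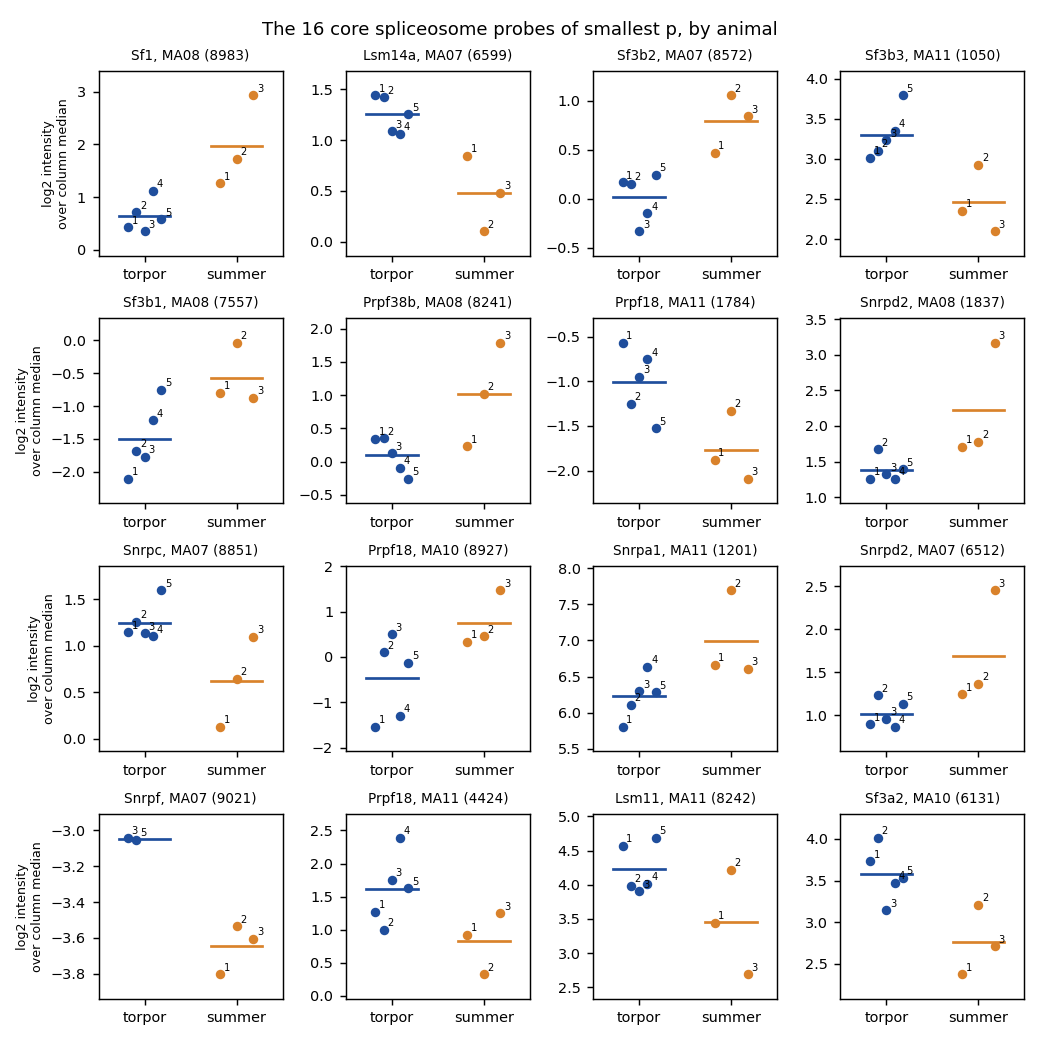
Log2 level (y axis, 0 is the column median) of the named member probes in each animal, torpor left of summer; points are animals, with their number, and the line is the group mean. The groups overlap at some probes, and summer animal 3 or 2 stands away from the other summer animals at several of the probes that were lower in torpor.

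PRPF proteins of the tri-snRNP and of spliceosome activation had a median of -0.057 over 21 probes, 13 below 0 and 8 above. Prpf18, which acts at the second splicing step, had probes on both sides of 0: MA11 probe 1784 at 0.76 ± 0.28 (adjusted p = 0.32) and MA11 probe 4424 at 0.78 ± 0.33 (adjusted p = 0.39), against MA10 probe 8927 at -1.22 ± 0.49 (adjusted p = 0.35). The levels at MA11 probe 1784, which had 1 empty column, were -0.57, -1.25, -0.95, -0.75 and -1.53 in torpor, against -1.88, -1.33 and -2.09 in summer. At MA11 probe 4424 they were 1.27, 0.996, 1.76, 2.38 and 1.63 in torpor, against 0.92, 0.32 and 1.24 in summer. The groups overlapped at both, and with the floor probe 1784 differed by 0.46. At the MA10 probe the levels were -1.53, 0.11, 0.50, -1.30 and -0.12 in torpor, against 0.34, 0.46 and 1.47 in summer, and torpid animal 3 exceeded 2 of 3 summer animals. The a and b columns of summer animal 2's RNA read 1.51 and -0.60 there. Prpf38b, a relative of the spliceosome activation factor Prpf38a, had levels of 0.35, 0.35, 0.12, -0.09 and -0.26 in torpor on MA08 (probe 8241), against 0.23, 1.02 and 1.79 in summer, a difference of -0.92 ± 0.32 (adjusted p = 0.29). Torpid animals 1 and 2 lay above summer animal 1, the difference was -0.53 without summer animal 3, and the a and b columns of summer animal 2's RNA read 1.89 and 0.16. Its other 4 probes gave -0.53, -0.20, -0.02 and 0.05, the last 2 of them the same clone spotted again.

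Prpf31, a U4/U6.U5 protein that was picked after its values were seen, had torpid animals above all summer animals at its MA07 probe (558), 1.84, 1.88, 1.74, 1.81 and 1.94 in torpor, against 1.58, 1.46 and 1.63 in summer, with a difference of 0.29 ± 0.15 (p = 0.092, adjusted p = 0.51). Its other probe, on MA10, differed by -0.16. Prpf8, the largest U5 protein, had 0.64 and -0.10, Prpf4b 0.45, -0.06, -0.81 and -0.06, Prpf6 0.24, Prpf3 0.05, Prpf4 -0.06, Prpf19 -0.09 and Prpf38a -0.10. Lsmem2 matches the rule's letters but encodes a membrane protein with no known part in splicing; its 2 spots of 1 clone had -0.48 and -0.42.

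When the probes of a gene were averaged, 0 of 43 genes reached an adjusted p under 0.05, against 0.128% of 11711 genes, and 6 of 43 (14%, against 11.5%) an unadjusted p under 0.05. These were Snrpa1 at -0.83 ± 0.26 (p = 0.0090, adjusted p = 0.27), Snrpd2 at -0.75 ± 0.29 (adjusted p = 0.37), Snrpf at 0.60 ± 0.22 (adjusted p = 0.38), Lsmem2 at -0.45 ± 0.18 (adjusted p = 0.40), Sf1 at -0.58 ± 0.25 (adjusted p = 0.42) and Snrpe at 0.51 ± 0.22 (adjusted p = 0.42). Snrpe and Snrpf had 1 probe each, so nothing was averaged for them, and Lsmem2 had 2 spots of 1 clone. All genes shared 1 limma fit, not 1 per membrane. The same Snrpe values had an SE of 0.37 (limma p = 0.18) in the fit of their membrane. For Snrpa1, 1 of the 2 probes was the dim MA07 spot. The 95% interval lay within a 2-fold change either way for 35 of 43 gene means (81.4%, against 75.8% of all genes).

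Clones of a gene often had differences of opposite sign. Of 27 member genes with at least 2 clones, 12 had all differences of one sign (44.4%, against 39.9% of 6409 such genes on the membranes). Among genes with exactly 2 clones these were 9 of 15 (60%, against 54.2%). The median spread between the highest and lowest difference of a gene was 0.55, against 0.53 for all such genes.

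Splitting one RNA also moved the values. The median absolute log2 difference between the a and b columns over the members was 0.29 for torpid animal 5, 0.46 for summer animal 1 and 0.46 for summer animal 2; over 2-fold were 6.38%, 14.9% and 20% of members. Of the 8 named probes lower in torpor, the summer animal farthest from the torpid mean was animal 3 in 5 and animal 2 in 3. Among the named probes higher in torpor it was animal 1 in 3, animal 2 in 2 and animal 3 in 3. Over all members animal 3 was the highest summer animal in 40 (41.2%, against 33.3% of all probes). The SD between animals had a median over the members of 0.31 in torpor and 0.38 in summer, where all tested probes had 0.35 in torpor and 0.36 in summer.

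**Figure D3:**
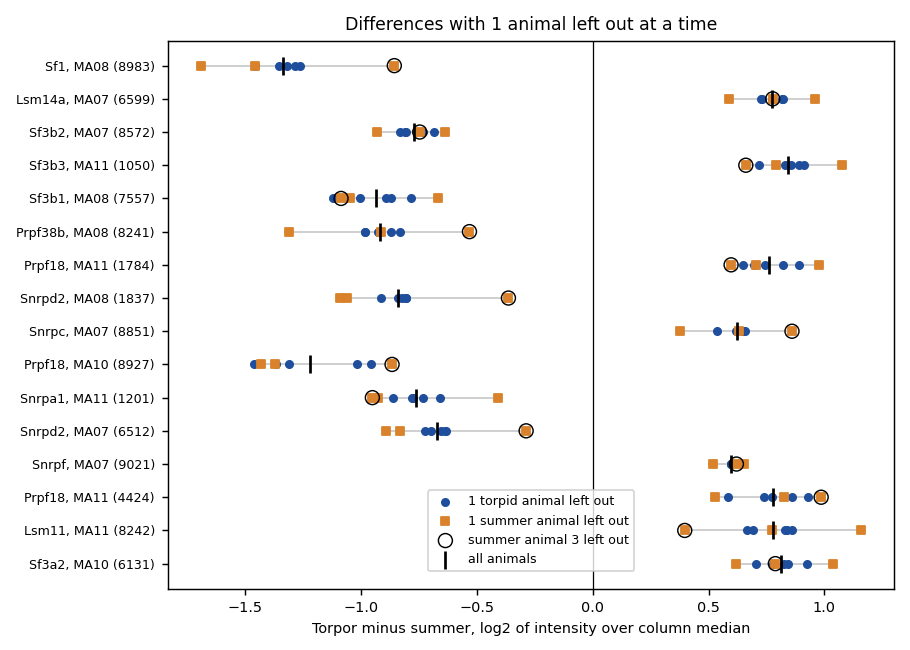
Log2 difference of the named probes (x axis) for each named probe (y axis) with all animals (tick) and with 1 torpid (round points) or 1 summer animal (squares) left out; a circle rings the value without summer animal 3. Leaving out summer animal 3 moved Sf1 to -0.86, Snrpd2 (MA08) to -0.36 and Prpf38b to -0.53.

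A wider list held genes outside the rule: helicases, regulators, snRNP assembly factors such as Gemin5 and snRNP proteins such as Snrnp70. It gave 192 probes for 79 genes, 188 of them tested. None reached an adjusted p under 0.05, 19 had an unadjusted p under 0.05 (10.1%, against 11.6% of all probes), 9 higher (4.79%) and 10 lower (5.32%), and the groups did not overlap at 13 (6.91%). The interval lay within a 2-fold change either way for 105 probes (55.9%), and the median difference was 0.0052. The 6 smallest p were at Rbm17 (-0.96 ± 0.21, adjusted p = 0.10; its other probe 0.14), Rbm25 (-1.68 ± 0.40, adjusted p = 0.15; its other probes from -0.45 to 0.45), Gemin5 (0.83 ± 0.22, adjusted p = 0.19; its other probes -0.44 and -0.07), Slu7 (-1.23 ± 0.34, adjusted p = 0.22, with 3 torpid and 2 summer values; its other probes from -0.65 to 0.45), Dhx15 (0.89 ± 0.29, adjusted p = 0.26; its other probes 0.40 and -0.20) and Puf60 (-1.30 ± 0.46, adjusted p = 0.27; its other probes -0.36 and 0.12). Without summer animal 1, an Sfpq probe (MA07 1096) at 1.29 and the Rbm25 probe at -2.28 passed the test. With all animals that Sfpq probe differed by 0.65 ± 0.41, and the other Sfpq probes ranged from -0.48 to 0.69.

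**Figure D4:**
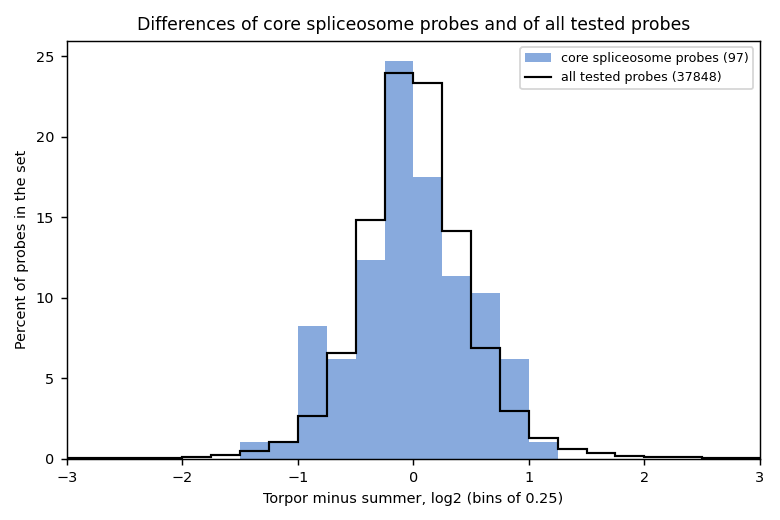
Distribution of torpor minus summer log2 differences (x axis) of the members (bars) and of all tested probes (line), as percent of each set (y axis). The members centre at -0.029, next to a median of 6.5e-05 for all tested probes.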

How the data were processed

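Spot intensity values were used as deposited by the authors: 4 membranes with 11 columns each, already divided by the column median (checked on the files). Image analysis, background correction and the cause of blank cells (3.45% of values) were not given in the sources used here, so signal over background could not be set. Values were taken to log2, empty cells stayed missing, and a and b columns of split RNAs were averaged on log2. Each membrane was fitted with limma 3.58.1 in R 4.3.3 (lmFit, eBayes, two-sided) keeping probes measured in 2 or more animals per group, with Benjamini-Hochberg adjustment over 37848 probes and a threshold of 0.05. The number of arrays limits the precision. Symbols came from the supplied platform annotation, which can be old; 40 of 43 member symbols are in the RefSeq squirrel annotation. Another 9 probes that name a symbol with the rule's letters beside a second symbol were left out. Snrpn and Lsm5 were named only by such probes. By rule, values per animal were given for the 16 members with the smallest p under 0.05; those of Lsm3, Prpf31 and the untested Lsm10 probe were added after they were seen, and 6 probes of the wider list were named; the members and lists were chosen with earlier results of these data known. Alternatives changed normalization, floor, dim probes, split columns, prior, weights, block, threshold and left-out animals. Code was tested on simulated data.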

Additional observations from a re-analysis of the deposited data

Results flagged for a closer look

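Over 94 member probes with values in enough torpid animals, a test for a single far value marked 7 (7.45%, against 6.15% of all tested probes), where chance marks about 1 in 20. Torpid animal 2 was the far animal in 5 of these 7, against 23.0% of the marked probes over all tested probes. On MA07 it was lowest at a Lsm14a probe (2.67, next 3.28), a Sf3b2 probe (0.45, next 0.85) and a Snrpb2 probe (-0.34, next 0.17). It was also highest there at another Sf3b2 probe (0.19, next -0.046), and lowest on MA08 at a Prpf8 probe (-1.01, next -0.35). The MA07 values all come from the same column, while the 23.0% is a share over all membranes. Torpid animal 4 was lowest at a Snrpa probe (0.57, next 1.21), and torpid animal 5 at a U2af2 probe (0.040, next 0.31).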

How the results depend on the processing

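Members with an adjusted p under 0.05 numbered 0 in 19 of 20 alternatives and 1 (Sf1) without summer animal 1, so leaving out single animals gave 0 to 1; the members' median ranged from -0.065 to 0.048, and the count at an unadjusted p under 0.05 from 9 to 20 (12 to 19 leaving out single animals). Replicate numbers were not taken to pair the animals. Deviations of same-numbered animals correlated at 0.017, 0.0063 and 0.014. Each animal correlated best with its own number, but values this close to 0 cannot settle whether the numbers pair animals. With the number as a replicate block, 9 members had an unadjusted p under 0.05. The count over all probes, 117, became 63 with cyclic loess, 76 with a floor, 238 without the dimmest 25% of probes, 176 and 38 with the a and the b columns of split RNAs, 228 with a trend and robust prior, 32 with the replicate block, 304 at a threshold of 0.1 and 17 to 347 leaving out single animals. The wider list had 0 to 2 calls leaving out single animals, and a median of -0.013 with quantile normalization, -0.017 with cyclic loess, 0.042 without the dimmest 25%, 0.024 with the block and -0.034 to 0.027 leaving out single animals. Of 282 alternative values of the named probes, 280 kept their direction. This count cannot show how firm the directions are, because the probes were chosen by a small p in these same animals. Some settings, such as the prior, also leave a difference as it was. Snrpf turned to -0.017 with a floor, which replaced its dim readings as well as its empty cells. Prpf18 (MA10) turned to 0.11 as a gene mean, which averages probes of both signs. The causes of the other changes were not tested.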
